A study of Bos taurus with 3 samples.

Results

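The genes described here encode nuclear subunits and helpers of the mitochondrial respiratory chain, together with ATP synthase. They were taken by symbol from the deposited count table: the NDUF subunits and assembly factors, SDHA to SDHD, the UQCR genes, CYC1, CYCS, the COX4 to COX8 genes, the ATP5 genes and ATPIF1. The rule found 85 of 31903 genes. It uses gene symbols only, but it was chosen with earlier results of these data known. The cells were BFF116, a culture of bovine fetal fibroblasts that supplied nuclei for somatic cell nuclear transfer. All 3 libraries form 1 group, each from total RNA of 70000 cells that had been kept without serum for 48 h. No unstarved or otherwise treated cells were analysed here, so no condition is compared. The labels give no age, sex or number of animals and call the libraries biological replicates without saying what was replicated, so p-values measure only the spread between these samples, which may be technical in part.

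The respiratory chain passes electrons from NADH through complex I, or from succinate through complex II, to ubiquinone, then through complex III, cytochrome c and complex IV to oxygen. Complexes I, III and IV pump protons across the inner mitochondrial membrane, and ATP synthase, also called complex V, uses the resulting gradient to make ATP. Subunits are encoded partly by mitochondrial DNA and mostly by nuclear genes, and several nuclear subunits of complex IV exist as pairs of isoforms, 1 widespread and the other enriched in heart and skeletal muscle, lung or testis. Fibroblasts in culture can draw on both glycolysis and respiration.

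The libraries held 8608350, 4842331 and 7122651 gene counts (replicates 1 to 3 in this order, here and throughout). Levels are in CPM, gene counts per 1000000 counts of the scaled library, given as mean ± SD of 3 libraries (n = 3 throughout). CPM is not divided by transcript length, because no transcript lengths were used here, so an order of genes by CPM is an order by reads and not by transcripts. Genes that reached 1 CPM in all 3 libraries are called measured. Fibroblast markers bore out the label, with 12 of 12 measured at a summed 133423 to 147426 CPM. Epithelial markers had 0 of 6 measured (EPCAM at 0 reads). Leukocyte markers had 2 of 6 measured, CD68 (32, 9 and 33 reads) and LYZ (28, 10 and 21 reads). Of the others, FCER1G had 26, 1 and 14 reads and PTPRC had 0.

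Most of the listed genes had reads in every library. Of the 85 genes, 78 were measured (91.8%), against 34.6% of all genes in the table. By complex this was 32 of 33 subunit genes of complex I, 6 of 7 complex I assembly factors, 2 of 2 genes of complex II, 9 of 9 of complex III, CYCS, 10 of 15 of complex IV and 18 of 18 named for complex V. These counts cover only the 85 genes found by the rule, not every subunit of each complex. SDHA and SDHD of complex II were not among them. The 7 genes not measured were NDUFV2, NDUFAF2, COX4I2, COX6A2, COX6B2, COX7B2 and COX7ALP1. Measured genes had mean levels from 7.38 to 724 CPM, with a median of 57.0 CPM, and the median over all 11047 measured genes was 20.5 CPM. The 85 genes held 0.694, 0.804 and 0.805% of gene counts in replicates 1 to 3. ATP5A1, ATP5B and UQCRH alone supplied 25.7% ± 0.496 of those reads.

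**Figure D1:**
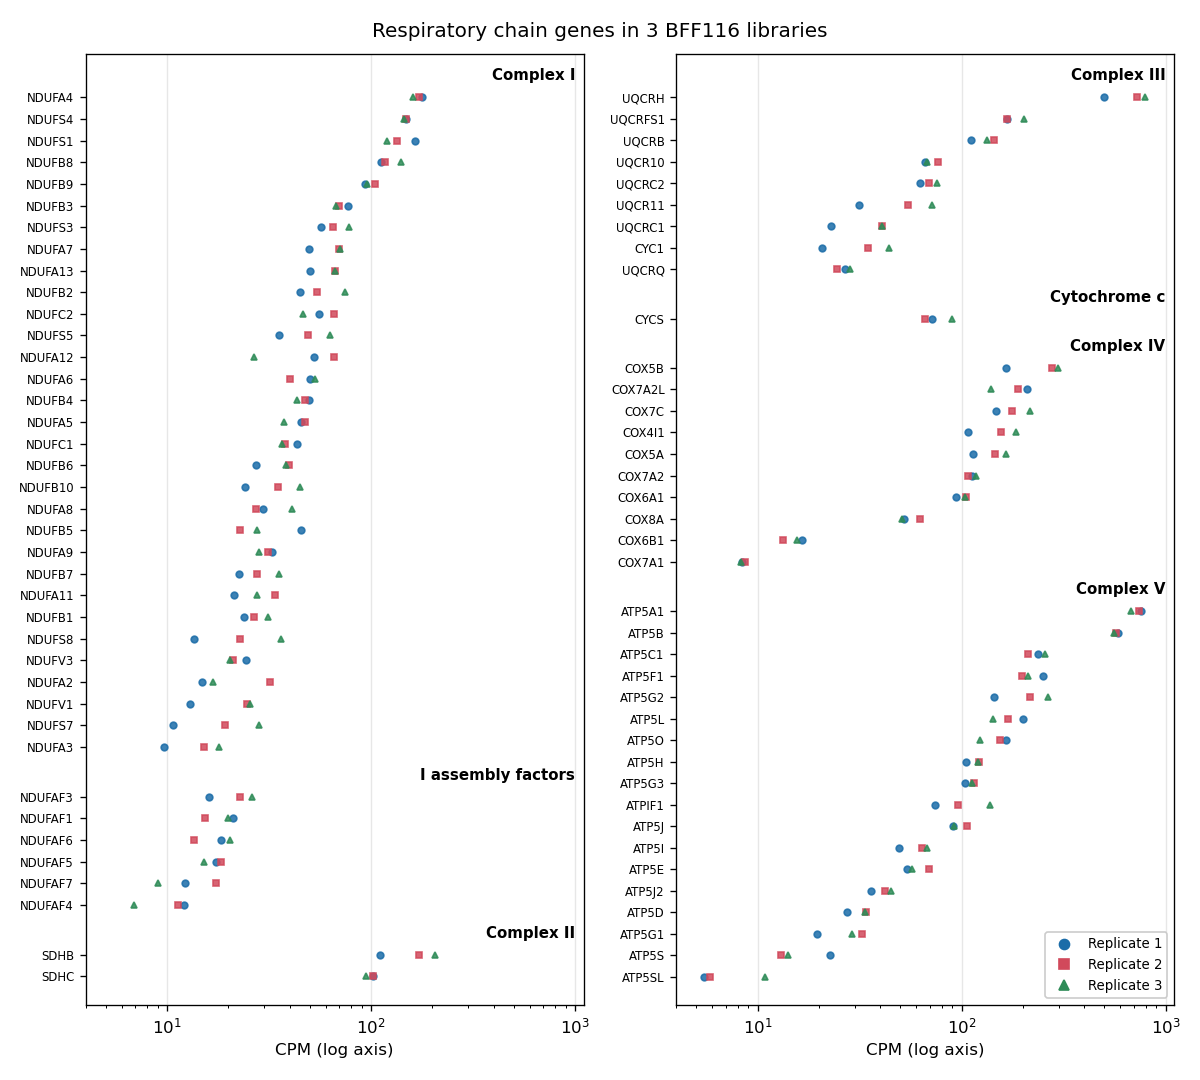
CPM (log axis) of 77 of the 78 measured genes, 1 row per gene, grouped by complex and ordered by mean, with 1 point per library. The 3 points of most genes lie close together, and replicate 1 is the leftmost point of 8 of the 9 complex III genes.

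Complex I oxidises NADH at the tip of an arm that projects into the mitochondrial matrix. Of its 7 nuclear core subunits, which carry the flavin, the iron-sulfur clusters and the quinone site, 6 were measured. NDUFS1, the largest of them and a carrier of iron-sulfur clusters, stood at 164, 135 and 119 CPM in replicates 1 to 3. NDUFS3, a subunit of the same arm, stood at 56.9, 65.3 and 77.7 CPM. NDUFS1 was highest in replicate 1 and NDUFS3 in replicate 3.

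A further 3 core genes were all lowest in replicate 1. NDUFV1, which binds NADH and the flavin, stood at 12.9, 24.6 and 25.6 CPM. NDUFS7, which holds the last iron-sulfur cluster before ubiquinone, stood at 10.7, 19.1 and 28.1 CPM, and NDUFS8, another iron-sulfur subunit, at 13.5, 22.8 and 36.0 CPM. The highest library exceeded the lowest by 1.98-fold for NDUFV1, 2.63-fold for NDUFS7 and 2.66-fold for NDUFS8, against 1.37-fold for NDUFS1. NDUFV2, the core subunit that pairs with NDUFV1, had only 3, 0 and 1 reads. Its protein-coding neighbours in the RefSeq gene order, MTCL1 (221, 135 and 257 reads) and ANKRD12 (2177, 984 and 1293 reads), were well covered. Gene counts leave out reads that align to several places, and the part of such reads in the value of NDUFV2 was not tested, so whether this value reflects its expression is not known.

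All 26 accessory subunit genes of complex I that the symbol rule found were measured, from 14.2 to 169.8 CPM. NDUFA4, named for complex I but now also placed in complex IV, was at 178, 171 and 160.1 CPM. NDUFS4, a subunit of the NADH-oxidising part that is often mutated in Leigh syndrome, was at 149, 148 and 145 CPM. Both differed little between libraries, and the coefficient of variation (CV, SD over mean) of NDUFS4, 1.36%, was the lowest of all 78 measured genes. The 10 NDUFB genes, which encode subunits of the membrane arm, ranged from NDUFB1 at 27.3 ± 3.63 to NDUFB8 at 123 ± 15.2 CPM. The 11 NDUFA genes ranged from NDUFA3 at 14.2 ± 4.26 CPM to NDUFA4.

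A few accessory genes differed more between libraries. NDUFA12 stood at 52.6, 66.1 and 26.6 CPM and was low in replicate 3. NDUFA2 stood at 14.8, 31.8 and 16.9 CPM and was high in replicate 2. NDUFB5 stood at 45.1, 22.8 and 27.7 CPM and was high in replicate 1. These 3 genes thus did not share a library in which they stood apart. The accessory genes with the next largest CVs did: NDUFB10 (30.0%), NDUFA3 (29.9%), NDUFS5 (27.6%) and NDUFB2 (26.2%) were each lowest in replicate 1 and highest in replicate 3. Of all measured genes, 39.2% were lowest in replicate 1 and 36.7% highest in replicate 3. Not all accessory genes with smaller CVs followed this order of libraries. NDUFB5, NDUFB10, NDUFS5 and NDUFB2 were named after their values were seen.

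The complex I assembly factors, which help build the complex and are not part of it, were at 10.1 to 21.7 CPM where measured. NDUFAF3 stood at 21.7 ± 5.09 CPM, NDUFAF1 at 18.8 ± 3.08, NDUFAF6 at 17.4 ± 3.55, NDUFAF5 at 17.0 ± 1.62, NDUFAF7 at 12.9 ± 4.20 and NDUFAF4 at 10.1 ± 2.81. NDUFAF2 was the exception, with 15, 1 and 9 reads, below 1 CPM in replicate 2 and above it in the others. Of 13 listed further complex I genes, 10 had a row and 8 were measured, ATP5SL of the symbol rule among them. The list was led by TIMMDC1 (19.2 ± 3.70), TMEM126A (14.7 ± 2.05) and TMEM126B (12.8 ± 7.69 CPM), all assembly factors. ACAD9, an acyl-CoA dehydrogenase family member needed for assembly, had 9, 4 and 28 reads. NDUFA4L2, a relative of NDUFA4 that is induced by hypoxia in other cells, had 1, 0 and 14 reads, and 14 of its 15 reads came from replicate 3. The ratio of NDUFA4 to NDUFA4L2 reads over all libraries was 232 (exact 95% binomial interval 141 to 416), which was 142 without replicate 1 and 2348 (421 to 92780) without replicate 3.

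Complex II links the citrate cycle to the chain by oxidising succinate. SDHB, its iron-sulfur subunit, stood at 111, 172 and 206 CPM, lowest in replicate 1. SDHC, a membrane anchor, stood at 103, 103 and 94.0 CPM, with a CV of 5.04%. SDHA and SDHD were not analysed here. Of the complex II assembly genes, SDHAF2, which helps attach the flavin, was at 72.7 ± 9.19 CPM, and SDHAF1 had 7, 6 and 5 reads.

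Complex III moves electrons from ubiquinol to cytochrome c. UQCRH, the acidic hinge subunit that contacts cytochrome c1, stood at 499, 725 and 792 CPM and had the most reads of the complex in every library. The iron-sulfur (Rieske) subunit UQCRFS1 stood at 167, 167 and 202 CPM, and the catalytic cytochrome c1 gene CYC1 at 20.8, 34.9 and 44.0 CPM. The structural core subunits were UQCRC2 at 68.9 ± 6.66 and UQCRC1 at 34.8 ± 10.2 CPM. Of the small subunits, UQCRB stood at 129.7 ± 16.8, UQCR10 at 70.3 ± 5.32, UQCR11 at 52.6 ± 20.0 and UQCRQ at 26.6 ± 1.86 CPM.

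In 8 of the 9 complex III genes replicate 1 was the lowest library, UQCRQ being the exception, whereas 39.2% of all measured genes were lowest there. The genes of complex III held 0.0987, 0.137 and 0.145% of gene counts, and 0.0499, 0.0627 and 0.0662% without UQCRH. The lower share in replicate 1 was thus present with and without the gene with the most reads. CYC1 differed 2.12-fold and UQCR11 2.26-fold between the highest and the lowest library, against 1.15-fold for UQCRQ and UQCR10. CYCS, the gene of the mobile carrier cytochrome c, stood at 71.4, 66.3 and 89.9 CPM. The log2 ratio of CYCS to CYC1 was 1.76, 0.92 and 1.02. Of 6 listed complex III assembly genes 4 had a row, and all were measured: UQCC3 (18.6 ± 5.17), TTC19 (12.1 ± 1.47), BCS1L, which inserts the Rieske protein (6.72 ± 2.95), and LYRM7 (1.50 ± 0.758 CPM).

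Complex IV, cytochrome c oxidase, reduces oxygen to water, and its nuclear subunits surround a catalytic core encoded by mitochondrial DNA. In each isoform pair with rows for both, the widespread form had more reads. COX4I1, the general form of the largest nuclear subunit, had 906, 773 and 1320 reads, while COX4I2, a form found mainly in lung and induced by low oxygen, had 0, 5 and 0. The summed reads gave a ratio of 599.8 (exact 95% binomial interval 257 to 1849). It was 336 without replicate 3, and without replicate 2, where COX4I2 had all its reads, COX4I1 was at least 302-fold above a floor of 3 counts in each library.

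COX6A1, the general form of a regulatory subunit, had 795, 520 and 740 reads, and its muscle form COX6A2 had 0 in every library. A count of 0 allows up to 0.605 CPM in the shallowest library, and the reads of COX6A1 were at least 173-fold above a floor of 3 counts in each library. COX6B1, which joins the monomers of the enzyme, had 139, 66 and 111 reads, and the testis form COX6B2 had 1, 1 and 0. Their summed ratio was 158 (exact 95% binomial interval 43.4 to 1310), 250 without replicate 2 (44.5 to 9913) and 102 without replicate 3 (28.0 to 852). COX7B2, another testis form, had 0 reads, and COX7ALP1, annotated as a pseudogene by RefSeq, had 1 read in each library.

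COX7A1 was the 1 muscle-enriched form with more than a trace of reads. It had 71, 43 and 59 reads, or 8.43, 8.67 and 8.30 CPM, with a CV of 2.17%, which with so few reads is not a measure of precision. The general form COX7A2 had 949, 534 and 833 reads, and the ratio of summed reads was 13.4 (exact 95% binomial interval 11.5 to 15.7), between 13.0 and 13.7 when any 1 library was left out. Beside COX7A1, markers of skeletal and cardiac muscle had 0 of 8 measured, with sums of 0.950 to 3.83 CPM, and MYOD1, CKM and DES at 0 reads. Beside the testis forms, germ cell markers had 1 of 5 measured, SYCP3 (28, 17 and 16 reads), with sums of 2.25 to 3.80 CPM and DAZL and PRM1 at 0 reads. COX7A2L, a related protein that joins complexes III and IV into supercomplexes, stood at 210.1, 189.8 and 139.9 CPM and was lowest in replicate 3, unlike most complex IV genes.

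**Figure D2:**
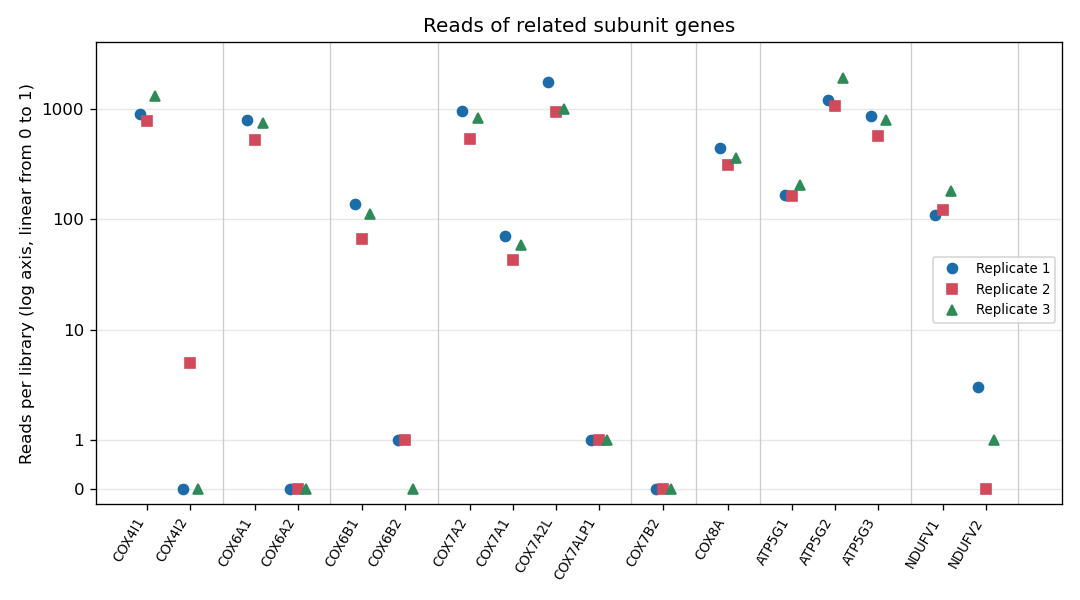
Reads per library (log axis, linear between 0 and 1) of related subunit genes, 1 point per library. COX4I1, COX6A1, COX7A2 and COX8A have 310 reads or more in each library, COX7A1 has 43 to 71, and COX4I2, COX6A2, COX6B2, COX7B2 and NDUFV2 have 0 to 5.

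The other complex IV subunits had no isoform partner analysed here. COX5B stood at 166, 276 and 297 CPM and COX5A, which with COX5B lies on the matrix side of the enzyme, at 114, 146 and 165 CPM. COX7C stood at 147, 176 and 216 CPM, and COX8A, the general form of a small membrane subunit, at 52.1, 62.5 and 50.9 CPM. COX4I1, COX5A, COX5B and COX7C were each lowest in replicate 1 and highest in replicate 3, while COX6A1 (101 ± 5.80) and COX7A2 (113 ± 4.80 CPM) differed by at most 1.11-fold between libraries.

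Of 25 listed complex IV assembly genes 20 had a row, and all 20 were measured. They were led by LRPPRC, which stabilises mitochondrial messenger RNA (164 ± 40.9 CPM), HIGD1A, a hypoxia-inducible inner membrane protein (159 ± 61.6), and COX14 (71.1 ± 7.25). Copper delivery genes were among them, COX17 at 36.2 ± 2.07, SCO1 at 25.2 ± 9.09 and COX11 at 9.41 ± 3.82 CPM, as were COX10 (16.6 ± 4.99), which acts in making heme a, and SURF1 (17.8 ± 4.69), mutated in Leigh syndrome. These 3 copper genes, COX10 and SURF1 were named after their values were seen.

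Complex V has a catalytic head, a central and a peripheral stalk, and a membrane ring through which protons pass. The genes of the main head subunits had the most reads of the complex in every library. ATP5A1, the alpha subunit, stood at 759, 738 and 676 CPM, and ATP5B, the beta subunit that carries the catalytic sites, at 583, 569 and 557 CPM. The log2 ratio of ATP5B to ATP5A1 was -0.38, -0.37 and -0.28, a mean of -0.34 ± 0.06. ATP5C1, the gamma subunit of the central stalk, stood at 236, 213 and 257 CPM, and the small stalk subunits ATP5E and ATP5D at 60.3 ± 8.13 and 31.6 ± 3.71 CPM. The CVs of alpha and beta were 5.97 and 2.34%.

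The peripheral stalk, which holds the head still, was represented by ATP5F1 (220.3 ± 28.0), ATP5O (147 ± 21.8), ATP5H (116 ± 9.10) and ATP5J (96.3 ± 8.54 CPM). The small membrane subunits were ATP5L (170.2 ± 29.3), ATP5I (60.3 ± 9.66) and ATP5J2 (41.1 ± 4.64 CPM). USMG5, a further small subunit outside the symbol rule, was at 150.4 ± 37.3 CPM.

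The c subunit of the proton-carrying ring is encoded by 3 genes whose mature proteins are identical and whose import sequences differ. ATP5G2 stood at 144, 216 and 265 CPM, ATP5G3 at 103, 115 and 112, and ATP5G1 at 19.6, 32.4 and 29.0. As shares of the reads of the 3 genes, ATP5G2 held 53.9% (exact 95% binomial interval 51.8 to 56.0), 59.5% (57.1 to 61.7) and 65.3% (63.5 to 67.0). ATP5G3 held 38.8% (36.7 to 40.8), 31.6% (29.5 to 33.8) and 27.6% (26.0 to 29.3), and ATP5G1 7.34, 8.93 and 7.13%. The intervals, which cover counting error only, did not overlap between libraries for ATP5G2 or for ATP5G3. The test of replicate spread with edgeR's trended dispersion did not call ATP5G2 (unadjusted p = 0.175). That test is of the gene's scaled counts, and the spread of its share was not tested. The order of the 3 genes by reads was the same in every library. Near-identical copies of these genes could take reads from them, and this was not tested.

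ATPIF1, the inhibitor that blocks ATP synthase from running backwards, stood at 73.8, 96.5 and 137 CPM, lowest in replicate 1. Its target ATP5B hardly differed, so the log2 ratio of ATP5B to ATPIF1 was 2.98, 2.55 and 2.02, a mean of 2.52 ± 0.48. ATP5S (16.6 ± 5.21) and ATP5SL (7.38 ± 3.00 CPM) carry the ATP5 symbol, but RefSeq now lists them as DMAC2L and DMAC2, and neither is a structural subunit. Assembly factor ATPAF1, which acts on the beta subunit, stood at 51.2 ± 27.8 CPM (621, 297 and 143 reads), TMEM242 had 20, 8 and 51 reads, and ATPAF2, which acts on the alpha subunit, had 7, 17 and 8.

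Of 17 planned pairs of related or partner genes, 12 had rows for both. In each of the 12 the log2 ratio had 1 sign in all 3 libraries. The exact two-sided sign-flip permutation test gave p = 0.25 for every pair (adjusted p = 0.25), the smallest value that 3 libraries allow. It therefore cannot pass 0.05, and the ratios are described by their values.

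Of 20 listed regulators of mitochondrial gene expression, 17 had a row and 15 were measured. YY1 (49.3 ± 13.5), GABPA (48.8 ± 11.2) and PPRC1 (42.5 ± 7.96 CPM), 2 transcription factors that bind promoters of respiratory genes and a coactivator, led the list. TFAM, which packages and transcribes mitochondrial DNA, stood at 13.9 ± 2.70 CPM. The inducible coactivator PPARGC1A had 12, 14 and 18 reads, NRF1 48, 16 and 31. The mitochondrial RNA polymerase gene POLRMT (16, 7 and 7 reads) and ESRRA (6, 6 and 10 reads) were below 1 CPM in some library. TFAM, PPARGC1A and NRF1 were named after their values were seen. Mitochondrially encoded subunits were not analysed here.

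The 3 libraries differed in the same direction for many respiratory chain genes. The 78 measured genes had a median log2 deviation from their own mean of -0.094 in replicate 1, 0.050 in replicate 2 and 0.093 in replicate 3, while the medians over all measured genes were 0.0016, 0.0011 and 0.013. Replicate 1 was the lowest library for 44 of 78 genes (56.4%), against 39.2% of all measured genes. Replicate 2 was the lowest for 12 (15.4%), against 26.1%, and replicate 3 for 22 (28.2%), against 34.7%. Replicate 3 was the highest for 36 of 78 (46.2%), against 36.7%, replicate 2 for 23 (29.5%), against 23.8%, and replicate 1 for 19 (24.4%), against 39.5%. Without replicate 1, the median of replicate 2 was -0.020 and that of replicate 3 0.020, equal and opposite by construction. Without replicate 2 or 3, the median of replicate 1 was -0.081 or -0.090, so the contrast rested on replicate 1. The part of RNA quality, amplification or cell state in it was not tested.

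**Figure D3:**
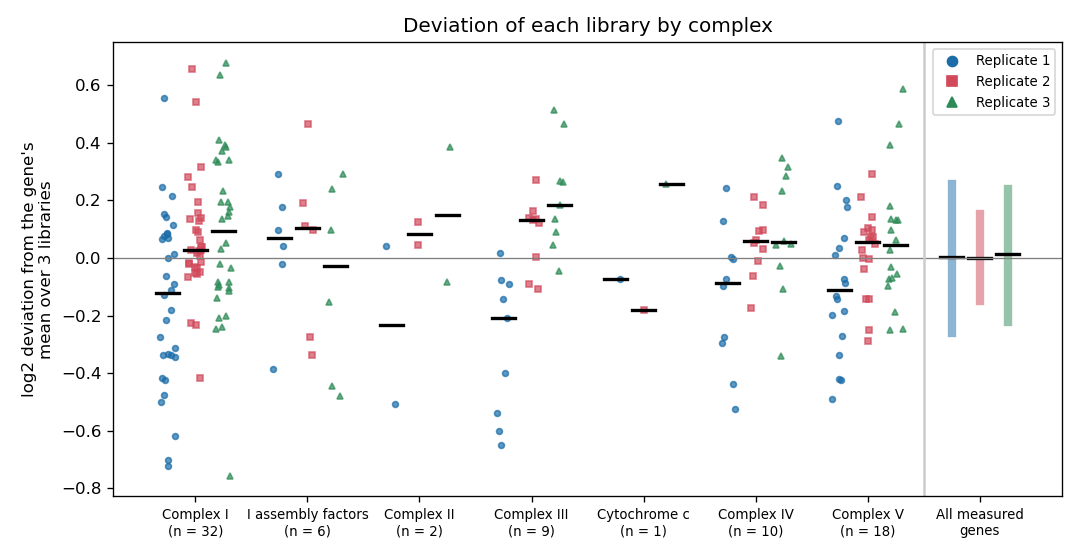
Deviation of each library from the gene's mean over 3 libraries (log2 of CPM + 0.5) by complex, 1 point per gene, with the median as a black bar; for all measured genes the coloured bars span the 25th to 75th percentile. In complex III the medians are -0.21 in replicate 1, 0.13 in replicate 2 and 0.18 in replicate 3, and for all measured genes they lie near 0.

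The median deviation in replicate 1 was below 0 for every complex: -0.12 for complex I, -0.23 for complex II (2 genes), -0.21 for complex III, -0.086 for complex IV and -0.11 for complex V. It was 0.069 for the 6 complex I assembly factors. Summed over its genes, complex V stood at 2929, 2956 and 2950 CPM, nearly level between libraries, while complex III stood at 1009, 1338 and 1455 CPM. The complex V sum is weighted by ATP5A1 and ATP5B, which were highest in replicate 1, whereas 11 of the 18 complex V genes were lowest there. Of the 50 measured assembly genes and regulators outside the symbol rule, 22 were highest in replicate 1, 8 in replicate 2 and 20 in replicate 3, where all measured genes had 39.5, 23.8 and 36.7%. Replicate 1 was the lowest library for 21 of the 50, a share near the 39.2% of all measured genes. The median deviation of the 50 genes was 0.105 in replicate 1, -0.011 in replicate 2 and 0.052 in replicate 3. By list, the median deviation in replicate 1 was -8.2e-05 for the complex IV assembly genes and -0.25 for the further complex I genes. It was -0.35 for the 4 complex III assembly genes, -0.31 for the 3 measured genes of the complex V list and 0.24 for the 15 measured regulators. Of the complex V list, ATPAF1 was highest in replicate 1 (73.8, 59.8 and 20.1 CPM), and the other 2 measured genes were highest in replicate 3. The further complex I list includes ATP5SL, a gene of the symbol rule, at -0.34.

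Spread between replicates was modest for most of these genes. Their median CV was 16.1% (range 1.36 to 46.9%), against 23.1% over all measured genes and 20.1% over the 7923 measured genes within the same range of mean CPM. Only 6 of 78 (7.69%) differed by 2-fold or more between the highest and the lowest library: NDUFS8, NDUFS7, NDUFA12, UQCR11, NDUFA2 and CYC1. The same was true of 26.7% of all measured genes and 18.4% of the 7923 genes, neither of them matched for level. The 5 largest CVs belonged to NDUFS8 (46.9%), NDUFS7 (45.2%), NDUFA2 (43.8%), NDUFA12 (41.5%) and ATP5SL (40.6%), each with 200 or fewer reads in some library. Leaving out any 1 library moved no measured gene's mean by 1.5-fold or more. With 3 libraries the mean of a measured gene cannot rise that far, so this says little about stability.

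Whether any of these genes varied more between replicates than other genes of like level was tested on the 10434 genes that reached 10 counts in each of the 3 libraries. With edgeR's trended dispersion, 0 of 78 passed an adjusted p under 0.05, against 0.0192% of all genes tested (2 genes). At an unadjusted p under 0.05 it was 0 of 78, against 5.24% of all genes tested. The smallest unadjusted p was 0.058, for NDUFS8. With the DESeq2 dispersion trend the count was also 0 of 78, at adjusted and at unadjusted p. In simulated libraries of this size, genes were raised in a single replicate, and the test called 3 of 98 at 2-fold and 66 of 96 at 4-fold, so differences of 2-fold would mostly go uncalled at this number of libraries.

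**Figure D4:**
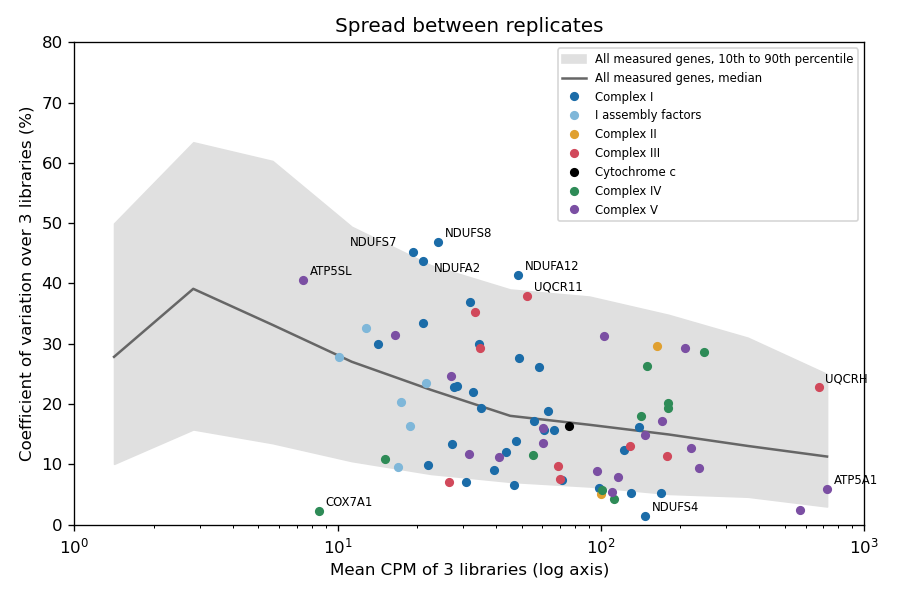
Coefficient of variation over 3 libraries against mean CPM (log axis) for the 78 measured genes, coloured by complex, over the median and the 10th to 90th percentile of all measured genes in bins of mean level. NDUFS8, NDUFS7, NDUFA2, NDUFA12 and UQCR11 lie toward the top, while ATP5A1, NDUFS4 and COX7A1 lie near the bottom.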

How the data were processed

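The authors deposited 1 table of whole-number read counts per gene symbol, with 1 column per replicate and 0 columns of other samples. The submitters' processing notes name TopHat2 2.0.10, HTSeq 0.6.1 and bcl2fastq 2.18.0.12. The strand setting, annotation and genome build were not given in the sources used here. Per the labels' protocols, cDNA was amplified with a single-primer isothermal kit, 500 ng of it was made into each library with 10 PCR cycles, and single reads of 100 bases were sequenced. The 5 summary rows were kept out of library sizes: reads in no gene were 59.2, 58.9 and 62.0% of each total, reads with several alignments 7.93, 7.52 and 7.99%, and ambiguous reads 0.237, 0.253 and 0.235%. Reads of overlapping or antisense genes cannot be told apart.

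CPM used TMM factors of 0.978, 1.02 and 0.998 (edgeR 4.0.16 in R 4.3.3), and log2 values are of CPM + 0.5. Replicate spread was tested with a negative binomial Pearson statistic around edgeR's trended dispersion (common coefficient of biological variation 27.3%), against chi-square with 2 degrees of freedom and Benjamini-Hochberg adjustment over all genes, and was checked on simulated data. Levels per kilobase were planned, but no transcript lengths were at hand, so CPM was used. Intervals and the floor of 3 counts cover counting error only, since PCR reads are not independent molecules. All 85 symbols matched RefSeq (ARS-UCD assembly), 67 by current and 18 by older symbols. Genes to be named by plan were the pairs, core subunits, genes below 1 CPM, the most variable, and the 3 leading genes of each further list. The highest and lowest of each complex were to be named too, here by CPM and not per kilobase. Other genes of the set, such as UQCRC2 and ATP5H, were named outside these rules. The values of 1 measured gene are not reported here, and it stays in the counts. Members, lists and pairs were chosen with earlier results of these data known. Alternatives were DESeq2 1.42.0 size factors and dispersion trend, other filters, summaries and pseudocounts, and leaving out each replicate.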

Additional observations from a re-analysis of the deposited data

How the results depend on the processing

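The count of 78 measured genes was 78 with DESeq2 size factors, with 10 or more counts in every library in place of 1 CPM, and without replicate 1 or 3, and 79 without replicate 2. The share of gene counts held by the 85 genes, 0.768%, lay between 0.749 and 0.805% when 1 library was left out. Median levels were 43.7 CPM for complex I, 16.9 for its assembly factors, 67.5 for complex III, 122 for complex IV and 108 for complex V. With the mean of log2 levels over all listed genes in place of the median of measured ones they were 39.8, 10.9, 78.8, 15.4 and 91.4 CPM. The value for complex IV then includes 5 genes with 0 to 5 reads. Leaving out 1 library put the assembly factors between 15.5 and 17.1 CPM. The deviation of replicate 2 changed sign from 0.050 to -0.020 without replicate 1 and was 0.090 without replicate 3. When 1 library is left out, the deviations of the remaining libraries are equal and opposite by construction. The change of sign is therefore not a result about replicate 2. The 12 pair ratios had the same sign under both other pseudocounts and without each replicate. No gene of the set was called more variable under any alternative. Over all genes the 2 calls became 5 with DESeq2 size factors, 6 without replicate 1 and 0 without replicate 2 or 3, and at an unadjusted p under 0.05 the set had 2, 0 and 1 genes without replicates 1, 2 and 3. No paired analysis was possible because the series has 1 group. Depth limits genes with few reads, and 3 reads correspond to 0.356, 0.605 and 0.422 CPM.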
